A study of Homo sapiens with 12 samples.

Results

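The 50 genes described here encode the machinery that copies DNA in S phase, together with the enzymes that supply its nucleotides and the factors that repackage new DNA. They were chosen by name. Each was represented by 1 probe set, the one with the highest mean over the 12 arrays among those listed with a single gene symbol, and all 50 were found among the 19775 named genes. All 50 also passed the filter on low values, a mean of at least 4.02 on the log2 scale, which 12824 genes passed. By role they were the 6 MCM2 to MCM7 helicase genes, 6 genes of GINS, CDC45 and MCM10, 8 genes of origin recognition and helicase loading, and 9 genes of the polymerases and primase. The others were 6 genes of PCNA and its loader RFC, 5 of RPA and Okazaki fragment joining, 5 of nucleotide supply, and 5 of chromatin assembly and the replication checkpoint.

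The cells were Jurkat, a human T-cell leukaemia line, transduced either with a construct encoding the microRNA miR-21 or with a control vector. RNA of 3 fractions was profiled for each construct, with 2 replicates of each: RNA immunopurified with AGO2 (AGO2 IP), RNA purified with control IgG (IgG IP), and Total RNA. AGO2 is the Argonaute protein that holds microRNAs on the mRNAs they bind, and IgG IP is the background of the purification. The labels do not say whether the replicates came from separate transductions or cultures, so p-values measure only the spread between these arrays.

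Before S phase, the origin recognition complex (ORC) with CDC6 and CDT1 loads rings of MCM2 to MCM7 onto origins. CDC45 and GINS then join the ring to form the active helicase, primase and polymerase alpha start each strand, and polymerases epsilon and delta extend it behind the PCNA clamp. Many of these genes are transcribed together late in G1 under E2F factors, and a dividing leukaemia line such as Jurkat transcribes them strongly.

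The deposited values were log2 RMA values (background-corrected, normalized and summarised probe set signals). Array means lay between 4.39 and 4.41 in replicate 1 and between 5.26 and 5.27 in replicate 2, so levels were set side by side only within a replicate. The difference between the 3' and 5' control probe sets of ACTB, a measure of RNA integrity, ran from 1.35 to 4.0 in replicate 1 and from 2.08 to 3.53 in replicate 2. Its highest value was in AGO2 IP of control vector cells in replicate 1, where AGO2 IP of miR-21 cells had 1.97. GAPDH's difference was higher in every IP than in Total RNA of the same replicate: 0.35 to 1.95 in the IPs against 0.14 and 0.22 in Total RNA of replicate 1, and 1.02 to 1.60 against 0.58 and 0.71 in replicate 2. ACTB's difference was also higher in every IP of replicate 1 (1.97 to 4.0) than in Total RNA there (1.35 and 1.38). In replicate 2 the 2 controls disagreed: ACTB's difference was 3.18 and 3.53 in Total RNA, against 2.57 and 3.48 in IgG IP and 2.08 and 2.58 in AGO2 IP. All 10 T cell markers passed the filter on low values, at means of 4.77 (CD28) to 12.2 (CD3D). Of the markers of other cell types, 1 of 3 B cell genes on the arrays passed (CD79A, 6.56), 1 of 3 monocyte genes (CSF1R, 4.53) and 2 of 4 epithelial genes (KRT8, 4.76, and KRT18, 5.95). CD79B (3.92), MS4A1 (3.07), CD14 (2.95), LYZ (2.78), CDH1 (2.83) and EPCAM (2.67) did not pass. Total RNA is that of the cell culture as a whole. In a comparison of the constructs, fewer cells in S phase and less of these mRNAs per cell therefore cannot be told apart. miR-21 itself was not measured here. Its mature sequence from RefSeq (GRCh38.p14, chr17:59841273-59841294, plus strand, written 5′ to 3′) is shown because the construct encodes it, with the seed, bases 2 to 8, in capitals.
hsa-miR-21-5p: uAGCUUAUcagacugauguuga

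Promoters are shown because many of these genes are textbook E2F targets. RefSeq (GRCh38.p14) gave a window of 300 bases for 44 of the 50 genes, 250 before to 50 after the annotated start, and the E2F motif was searched as TTTCGCGC or TTTGGCGC on both strands, with overlapping matches counted. A match was present in 11 of the 44 windows (25%), against 1.14% of the 27261 other promoters of that length. Of the 14 windows of genes that fell in AGO2 IP against Total RNA (below), 6 held a match, and of the 30 windows of genes not called, 5 did. Whether these shares differ, or bear on levels in an IP, was not tested. The windows below run from 170 bases before to 25 after the start, 5′ to 3′ on the gene's strand, with the matches in capitals. MCM2 (chr3:127598241-127598435, plus strand), MCM6 (chr2:135876419-135876613, minus strand) and POLA2 (chr11:65261792-65261986, plus strand) are genes that fell. DTL (chr1:212035578-212035772, plus strand) also holds a match and was the member with the highest AGO2 IP minus Total RNA difference. In MCM2 and MCM6 the capitals hold a match on each strand, the pair overlapping. A match is a stretch of letters and not a measured binding site.
MCM2: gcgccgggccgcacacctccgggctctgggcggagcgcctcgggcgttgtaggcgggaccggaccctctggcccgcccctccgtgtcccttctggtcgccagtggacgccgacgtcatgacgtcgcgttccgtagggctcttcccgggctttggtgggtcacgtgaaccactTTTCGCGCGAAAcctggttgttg
MCM6: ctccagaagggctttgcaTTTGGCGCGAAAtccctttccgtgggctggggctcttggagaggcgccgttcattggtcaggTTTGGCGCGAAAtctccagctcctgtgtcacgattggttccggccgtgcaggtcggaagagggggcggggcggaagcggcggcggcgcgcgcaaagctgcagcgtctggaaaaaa
POLA2: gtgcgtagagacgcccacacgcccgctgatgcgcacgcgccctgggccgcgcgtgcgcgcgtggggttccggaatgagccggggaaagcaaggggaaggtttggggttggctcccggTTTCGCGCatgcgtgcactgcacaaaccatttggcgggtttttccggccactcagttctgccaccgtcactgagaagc
DTL: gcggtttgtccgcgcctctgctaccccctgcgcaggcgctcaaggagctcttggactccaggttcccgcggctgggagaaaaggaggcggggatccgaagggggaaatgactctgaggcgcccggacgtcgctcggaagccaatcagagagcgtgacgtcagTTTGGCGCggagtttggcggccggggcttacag

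The first comparison, AGO2 IP with Total RNA, asks which replication mRNAs were at higher or lower levels in the purified RNA. Every IP array was labelled from 100 ng of RNA and every Total RNA array from 1 ug, so purification and labelled amount cannot be told apart in either comparison with Total RNA. The part of the GAPDH and ACTB differences given above was not tested. In the fit with the replicate number as a block, all 6 MCM2 to MCM7 genes fell. So did 11 others, from every role group except chromatin and checkpoint, and that fit called no member higher under the deposited scaling. With arrays centred instead on the median of the genes tested, 8 members were lower (MCM2, MCM3, MCM4, MCM10, GINS4, POLD1, RFC1 and RPA1) and 3 higher (GINS1, ORC4 and RRM2), and the calls over all genes were 1017 higher and 701 lower, against 604 and 1447 as deposited. With the replicate number as a block in limma, 17 of 50 genes (34%) had a Benjamini-Hochberg adjusted p under 0.05 and were lower, where 11.3% of the 12824 genes tested were lower and 4.71% higher. The median log2 difference, AGO2 IP minus Total RNA, was -0.27 over the 50 genes and -0.05 over all genes tested. The lowest mean of a member was 6.50. With only genes of a mean of at least 6 tested, the median of all genes was -0.15, and the members' median minus it was -0.12. Without the block limma called 0 members and 0 genes in all (10 members and 1230 genes had an unadjusted p under 0.05). Counted by pairs of arrays of the same construct and replicate, 21 members were lower in 4 of 4 pairs, against 23.8% of all genes, and 7 were higher in 4 of 4, against 14.1%. They were GINS1, ORC4, RFC3, RFC4, RRM1, RRM2 and DTL. Fits within 1 replicate, in which the 2 constructs serve as repeats, called 19 members lower and 6 higher in replicate 1 (all genes 23.3% and 13%) and 17 lower and 6 higher in replicate 2 (all genes 19.4% and 15.8%). In both replicates 11 members were called lower, 1 (DTL) higher, and 1 (PRIM2) in opposite directions. Of all genes, 8.62% were called lower in both and 4.46% higher in both. The share of all genes called in opposite directions was not counted, so the call of PRIM2 cannot be set against it. The count of 17 depended on single arrays, and so did the calls over all genes. Nearly all calls over all genes were also lost in the settings where the count was 0, so that loss was not particular to the members. It was 0 when AGO2 IP of miR-21 cells was left out in replicate 1 or in replicate 2, and 0 when Total RNA of either construct was left out in replicate 2. It was 7 when Total RNA of miR-21 cells was left out in replicate 1, 9 when AGO2 IP of control vector cells was left out there, and 11 when IgG IP of control vector cells was left out in either replicate.

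**Figure D1:**
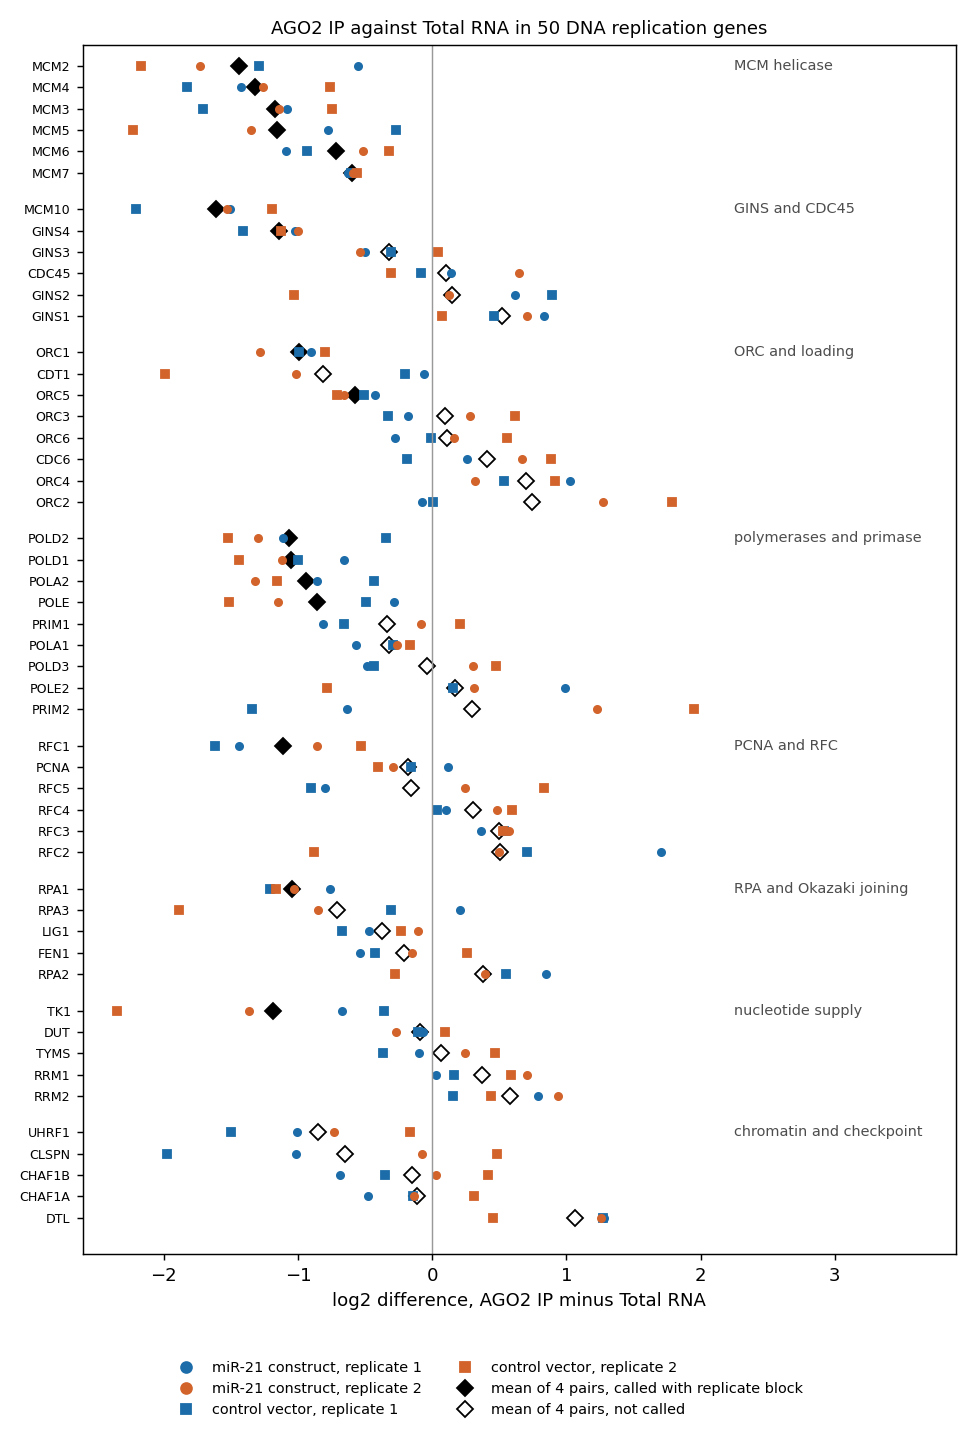
Each row is 1 of the 50 genes, ordered by role and then by mean, and the x axis is the log2 difference AGO2 IP minus Total RNA. Coloured points are the 4 pairs of arrays of the same construct and replicate, and diamonds their mean, filled where limma with the replicate block called the gene; the 17 filled diamonds lie between -1.61 and -0.58.

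The MCM2 to MCM7 proteins form the ring of the replicative helicase. MCM2 had log2 values of 9.94 and 10.01 in AGO2 IP of miR-21 cells (replicates 1 and 2) and 9.0 and 9.44 in AGO2 IP of control vector cells, against 10.49 and 11.73 in Total RNA of miR-21 cells and 10.29 and 11.61 in Total RNA of control vector cells. In each replicate both AGO2 IP arrays were below both Total RNA arrays, and the IgG IP arrays, at 10.02 and 10.12 with miR-21 and 9.70 and 9.58 with the control vector, lay near the AGO2 IP arrays in replicate 2. The log2 difference was -1.44 ± 0.28 (SE, adjusted p = 0.0181). MCM4 fell by 1.32 ± 0.27 on the log2 scale (adjusted p = 0.0194). MCM3 (-1.17 ± 0.27, adjusted p = 0.0248) and MCM5 (-1.15 ± 0.33, adjusted p = 0.0465) fell by similar amounts. MCM6 fell by 0.71 ± 0.20 and MCM7 by 0.59 ± 0.17, with adjusted p = 0.0417 and 0.0429. Of 22 alternative settings, the call was lost in 5 for MCM2 and MCM4 and in 7 for MCM3, but in 16 for MCM6 and 17 for MCM5 and MCM7. Each of the 6 was lower in 4 of 4 pairs. The sizes were not alike in both replicates. MCM3 and MCM4 differed more in replicate 1, where AGO2 IP minus Total RNA was -1.39 and -1.63, than in replicate 2, where it was -0.94 and -1.01. MCM2 and MCM5 differed more in replicate 2, at -1.95 and -1.79, than in replicate 1, at -0.92 and -0.52. MCM7 was the steadiest of the 6, at -0.62 in replicate 1 and -0.57 in replicate 2.

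**Figure D2:**
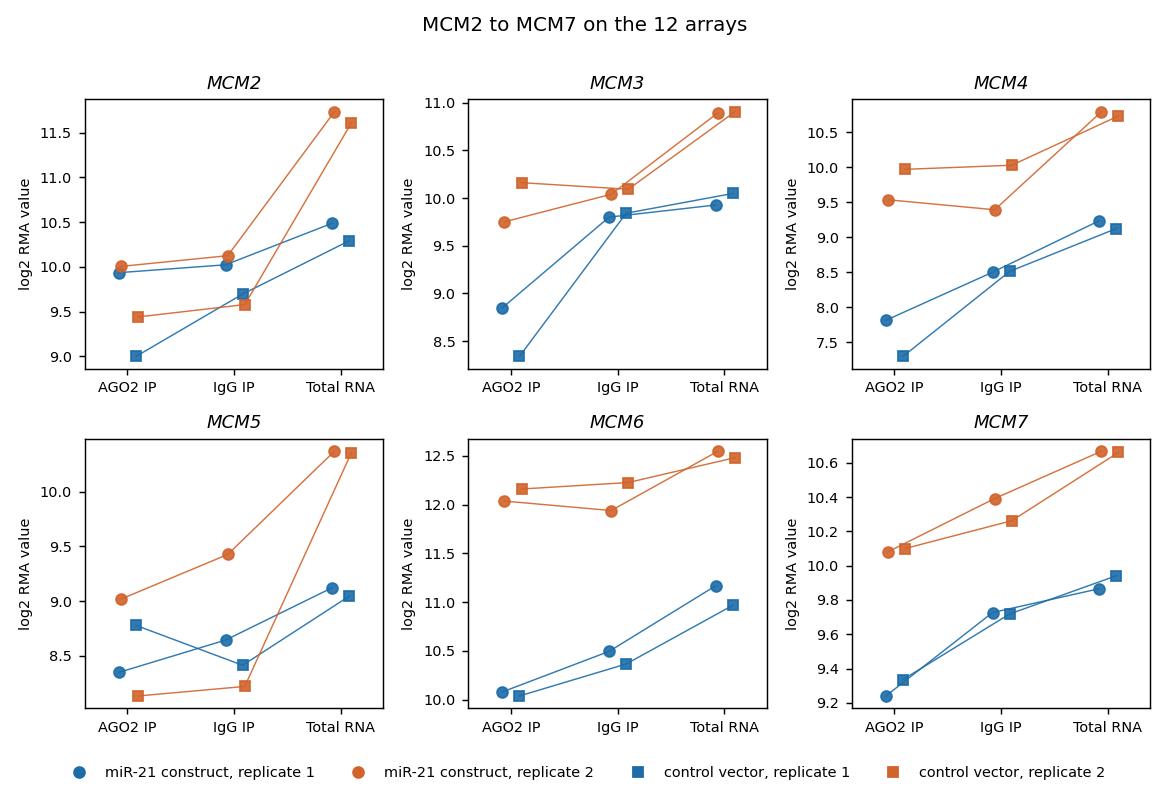
Log2 RMA values (y axis, scaled separately for each gene) of MCM2 to MCM7 in AGO2 IP, IgG IP and Total RNA (x axis); lines join arrays of the same construct and replicate. In every panel and for each line the AGO2 IP point lies below the Total RNA point, and the points of both IPs are close together in replicate 2.

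MCM10, which helps to activate the loaded helicase, had the largest fall of all 50 genes. Its log2 values were 7.55 and 8.81 in AGO2 IP of miR-21 cells and 6.64 and 9.08 in AGO2 IP of control vector cells, against 9.05 and 10.33 in Total RNA of miR-21 cells and 8.85 and 10.28 in Total RNA of control vector cells. Within each replicate the fractions did not overlap, and the difference was -1.61 ± 0.31 (SE, adjusted p = 0.0167). GINS is a complex of 4 proteins that binds CDC45 and the MCM ring. Of its 4 genes only GINS4 was called over both replicates, and whether the genes differed from each other was not tested. GINS4 had 6.06 and 8.42 in AGO2 IP of miR-21 cells and 5.69 and 8.51 in AGO2 IP of control vector cells, against 7.08 and 9.42 in Total RNA of miR-21 cells and 7.10 and 9.64 in Total RNA of control vector cells. It fell by 1.14 ± 0.19 (adjusted p = 0.0135), the smallest adjusted p of the 50 genes. The calls of MCM10 and GINS4 were each lost in 5 of the 22 settings. GINS1 was at 0.52 ± 0.21 (adjusted p = 0.118), GINS2 at 0.15, GINS3 at -0.32 and CDC45 at 0.10, none past the threshold. GINS2 was called higher within replicate 1 (0.75) and was at -0.45, not called, within replicate 2.

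Of the 8 origin recognition and loading genes, 2 fell. ORC1 encodes the ATPase subunit of ORC whose level changes with the cell cycle. It had 5.99 and 6.37 in AGO2 IP of miR-21 cells and 5.90 and 6.88 in AGO2 IP of control vector cells, against 6.89 and 7.65 in Total RNA of miR-21 cells and 6.88 and 7.68 in Total RNA of control vector cells. Within each replicate AGO2 IP was below Total RNA, with a difference of -0.99 ± 0.23 (adjusted p = 0.0244). ORC5 fell by 0.58 ± 0.17 (adjusted p = 0.04996, just under the threshold), a call lost in 19 of the 22 settings, against 8 for ORC1. The other subunits were not called: ORC2 was at 0.75 ± 0.37, ORC3 at 0.10, ORC4 at 0.70 ± 0.26 and ORC6 at 0.11. ORC2 differed between the replicates, with AGO2 IP minus Total RNA of -0.04 in replicate 1 and 1.53, called, in replicate 2. The loading factors CDC6 (0.41) and CDT1 (-0.82, adjusted p = 0.111) were not called over both replicates. In replicate 2 CDC6 was called higher (0.78) and CDT1 lower (-1.50), while in replicate 1 they were at 0.04 and -0.13.

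Among the 9 polymerase and primase genes, 4 fell, from 3 different polymerases. POLD2, an accessory subunit of polymerase delta, had 7.63 and 7.15 in AGO2 IP of miR-21 cells and 8.34 and 7.19 in AGO2 IP of control vector cells, against 8.74 and 8.45 in Total RNA of miR-21 cells and 8.69 and 8.71 in Total RNA of control vector cells. In each replicate both AGO2 IP arrays were below both Total RNA arrays (-1.07 ± 0.28, adjusted p = 0.0338). POLD1, the catalytic subunit of polymerase delta, fell by 1.05 ± 0.21 (adjusted p = 0.0177), POLA2, the second subunit of polymerase alpha, by 0.94 ± 0.22 (adjusted p = 0.0248), and POLE, the catalytic subunit of polymerase epsilon, by 0.86 ± 0.24 (adjusted p = 0.0448). The call was lost in 5 of the 22 settings for POLD1, 10 for POLA2, 11 for POLD2 and 17 for POLE. POLA1 (-0.32), PRIM1 (-0.33), POLD3 (-0.04) and POLE2 (0.17) were not called.

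PRIM2, the large primase subunit, went opposite ways in the replicates. In replicate 1 it had 5.65 and 5.28 in AGO2 IP (miR-21 and control vector) against 6.29 and 6.62 in Total RNA. In replicate 2 it had 8.61 and 9.58 in AGO2 IP against 7.38 and 7.63 in Total RNA. The fits within a replicate called it at -0.99 ± 0.21 (adjusted p = 0.0155, limma) and at 1.59 ± 0.24 (adjusted p = 0.00428, limma), and over both it was at 0.30 ± 0.50. IgG IP of replicate 2 was also above Total RNA, at 8.88 and 9.46.

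**Figure D3:**
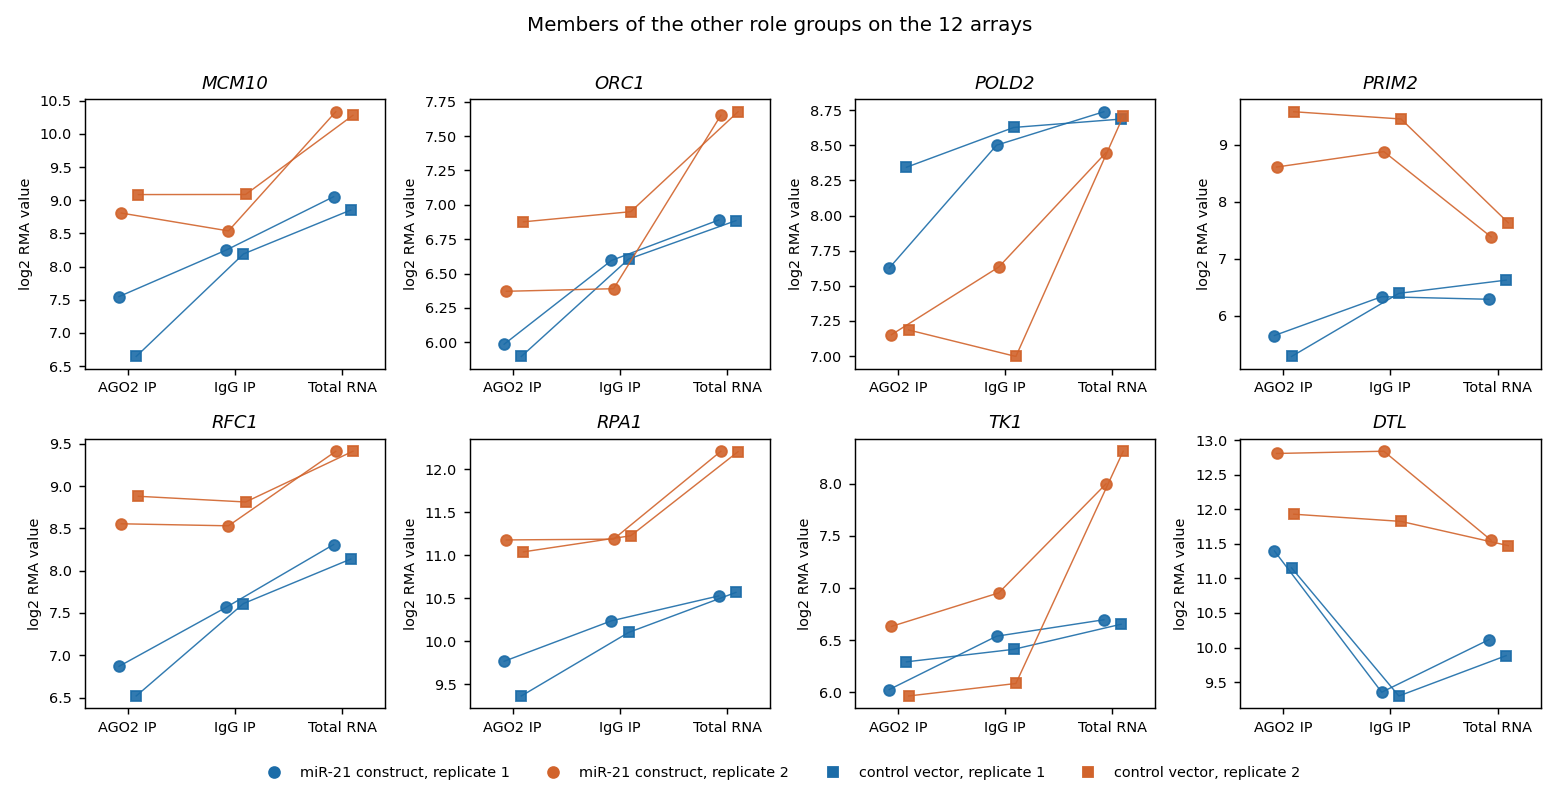
Log2 RMA values (y axis, scaled separately for each gene) of the member with the largest AGO2 IP minus Total RNA difference in each role group outside MCM2 to MCM7, and of PRIM2, in AGO2 IP, IgG IP and Total RNA (x axis). The AGO2 IP points of MCM10, ORC1, POLD2, RFC1, RPA1 and TK1 lie below Total RNA on every line, those of DTL above it, and those of PRIM2 below it in replicate 1 and above it in replicate 2.

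RFC is the 5-subunit complex that loads the PCNA clamp, and its large subunit gene, RFC1, was called over both replicates. RFC1 had 6.87 and 8.55 in AGO2 IP of miR-21 cells and 6.52 and 8.88 in AGO2 IP of control vector cells, against 8.31 and 9.41 in Total RNA of miR-21 cells and 8.14 and 9.41 in Total RNA of control vector cells. It was lower in 4 of 4 pairs and fell by 1.11 ± 0.25 (adjusted p = 0.0237). RFC2 was at 0.51, RFC3 at 0.50, RFC4 at 0.30, RFC5 at -0.15 and PCNA at -0.18, none past the threshold, and whether they differed from RFC1 was not tested. Within replicate 1 RFC2 was called higher (1.21, adjusted p = 0.0153, limma) and RFC5 lower (-0.85, adjusted p = 0.00996, limma), while in replicate 2 they were at -0.19 and 0.54, not called. RPA1, the large subunit of the single-strand binding protein RPA, had 9.76 and 11.18 in AGO2 IP of miR-21 cells and 9.36 and 11.04 in AGO2 IP of control vector cells, against 10.52 and 12.21 in Total RNA of miR-21 cells and 10.57 and 12.20 in Total RNA of control vector cells. It fell by 1.04 ± 0.20 (adjusted p = 0.0167), with no overlap within a replicate. The call was lost in 5 of the 22 settings for RPA1 and in 8 for RFC1. RPA2 (0.38) and RPA3 (-0.71, adjusted p = 0.164) were not called, nor were the flap nuclease gene FEN1 (-0.21) and the ligase gene LIG1 (-0.37).

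Of the 5 nucleotide supply genes, TK1, the cytosolic thymidine kinase of S phase, fell. It had 6.03 and 6.63 in AGO2 IP of miR-21 cells and 6.29 and 5.97 in AGO2 IP of control vector cells, against 6.70 and 8.0 in Total RNA of miR-21 cells and 6.65 and 8.31 in Total RNA of control vector cells. Both AGO2 IP arrays were below both Total RNA arrays in either replicate (-1.18 ± 0.34, adjusted p = 0.0468). The difference was -0.51, not called, in replicate 1 and -1.85, called, in replicate 2, and the call over both was lost in 16 of the 22 settings. The ribonucleotide reductase genes RRM1 (0.37) and RRM2 (0.58 ± 0.21, adjusted p = 0.0882), the thymidylate synthase gene TYMS (0.06) and the dUTPase gene DUT (-0.09) were not called.

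None of the 5 chromatin and checkpoint genes passed the test over both replicates. DTL, an adaptor of the ubiquitin ligase that degrades CDT1, had 11.40 and 12.81 in AGO2 IP of miR-21 cells and 11.15 and 11.93 in AGO2 IP of control vector cells, against 10.11 and 11.55 in Total RNA of miR-21 cells and 9.88 and 11.47 in Total RNA of control vector cells. It was higher in 4 of 4 pairs, at 1.07 ± 0.39 (adjusted p = 0.0968), and was called within replicate 1 (1.28) and within replicate 2 (0.86). Of all genes, 4.46% were called higher in both. UHRF1, which guides maintenance DNA methylation, was at -0.85 ± 0.28 (adjusted p = 0.0691), the checkpoint mediator gene CLSPN at -0.65, and the chromatin assembly genes CHAF1A and CHAF1B at -0.11 and -0.15.

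A list of 39 further replication genes on the arrays, among them licensing inhibitors, topoisomerases and fork factors, gave 8 lower (20.5%, against 11.3% of all genes) and 0 higher (against 4.71%) with the replicate block, with a median of -0.46. The largest falls were those of RNASEH2C, a subunit of ribonuclease H2 (-1.87), RIF1, which controls replication timing (-1.74), DNMT1, the maintenance DNA methyltransferase (-1.66), and TOP2A, topoisomerase II alpha (-1.38). The highest value, not called, was that of CDC7, a kinase that activates origins (1.38 ± 0.44, adjusted p = 0.0641), and its partner DBF4 was at 0.82 (adjusted p = 0.138).

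IgG IP was compared with Total RNA as the background of the purification. With the replicate block 1 member, GINS4, fell, and 0 rose, where 1.62% of all genes were lower and 0.296% higher. GINS4 had 6.30 and 8.50 in IgG IP of miR-21 cells and 5.79 and 8.62 in IgG IP of control vector cells, which put it below Total RNA on every pair (-1.01 ± 0.19, adjusted p = 0.0356). The median of the 50 genes was -0.11 (all genes -0.01). This comparison shares the Total RNA arrays with the one above, so the values of the members stand side by side and are not independent. MCM2 was at -1.18 (adjusted p = 0.0705) in IgG IP, MCM10 at -1.11 (adjusted p = 0.0999), MCM5 at -1.05 and MCM4 at -0.86 (adjusted p = 0.132 and 0.125). POLD1 was at -0.80, POLE at -0.85, RPA1 at -0.69 and TK1 at -0.92, none past the threshold. By pairs, 21 members were lower in 4 of 4, against 19.3% of all genes, and 4 (ORC6, RFC4, FEN1 and TYMS) higher in 4 of 4, against 12.5%. All 6 MCM2 to MCM7 genes were among the 21. Within replicate 1, 1 member was called lower and 0 higher (all genes 2.99% and 0.772%), and within replicate 2, 15 lower and 4 higher (all genes 16.6% and 14.7%). The call of GINS4 was lost without any 1 of the 8 IgG IP and Total RNA arrays, and when AGO2 IP of miR-21 cells was left out in either replicate. When AGO2 IP of control vector cells was left out in either replicate, 3 members were called. Without the block limma called 0 members (4 at an unadjusted p under 0.05).

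AGO2 IP against IgG IP asks what the AGO2 antibody added over its background, and here the replicates differed. Over both, limma called 0 members with the block (4 at an unadjusted p under 0.05) and 0 without it (0 at an unadjusted p under 0.05), and 0 of all genes in either fit. The members' median was -0.20 (all genes -0.08). In replicate 1, 10 members were called lower and 6 higher, where 11.5% of all genes were lower and 12.5% higher. DTL was the highest, with 11.40 and 11.15 in AGO2 IP (miR-21 and control vector) against 9.35 and 9.30 in IgG IP, a difference of 1.95 ± 0.16 (adjusted p = 9.3e-04). RFC2 (1.10), POLE2 (0.98), ORC4 (0.89), GINS1 (0.84) and RFC3 (0.68) were also higher. MCM3 was the lowest, with 8.85 and 8.34 in AGO2 IP against 9.80 and 9.84 in IgG IP (-1.23, adjusted p = 0.0120). MCM10 (-1.12), MCM4 (-0.95), UHRF1 (-0.91), RFC1 (-0.90), PRIM2 (-0.90), FEN1 (-0.78), ORC1 (-0.66), RFC4 (-0.66) and RFC5 (-0.62) followed. MCM2 (-0.39), MCM5 (0.03), MCM6 (-0.37) and MCM7 (-0.43) were not called in replicate 1. The control vector AGO2 IP array used in these calls had the highest ACTB and GAPDH 3' minus 5' differences of all arrays (4.0 and 1.95). The part of that array's RNA integrity in the calls was not tested.

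In replicate 2 no member was called (1 at an unadjusted p under 0.05), and no gene of the 12824 was. DTL was at 0.04, MCM3 at -0.11 and MCM10 at 0.13 there. The SD of AGO2 IP minus IgG IP over the 50 genes was 0.66 with miR-21 and 0.64 with the control vector in replicate 1, and 0.26 and 0.11 in replicate 2. Both IPs of a construct were thus close for these genes in replicate 2, as for all genes (SD 0.29 and 0.18). By pairs, 15 members (30%) were lower in 4 of 4, against 13.1% of all genes. They were MCM2, MCM7, GINS3, GINS4, ORC1, ORC6, POLA2, RFC5, RPA1, FEN1, LIG1, TYMS, TK1, CHAF1A and CHAF1B. GINS1 and ORC2 were higher in 4 of 4 (4%, against 5.63% of all genes). Some of these differences were very small in replicate 2, such as -0.009 for RPA1 with miR-21. With the control vector LIG1 was at -0.004 and ORC2 at 0.018 there. With AGO2 IP of control vector cells and IgG IP of miR-21 cells both left out in replicate 2, a choice made with the likeness of the IPs there known, 5 members were called with the block. That setting leaves no pair of IPs of 1 construct in replicate 2, so its calls rest largely on replicate 1. DTL was higher (1.67 ± 0.29), where 5.95% of all genes were higher, and MCM3, MCM10, MCM4 and UHRF1 were lower (-1.06 to -0.90), where 1.47% of all genes were lower.

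**Figure D4:**
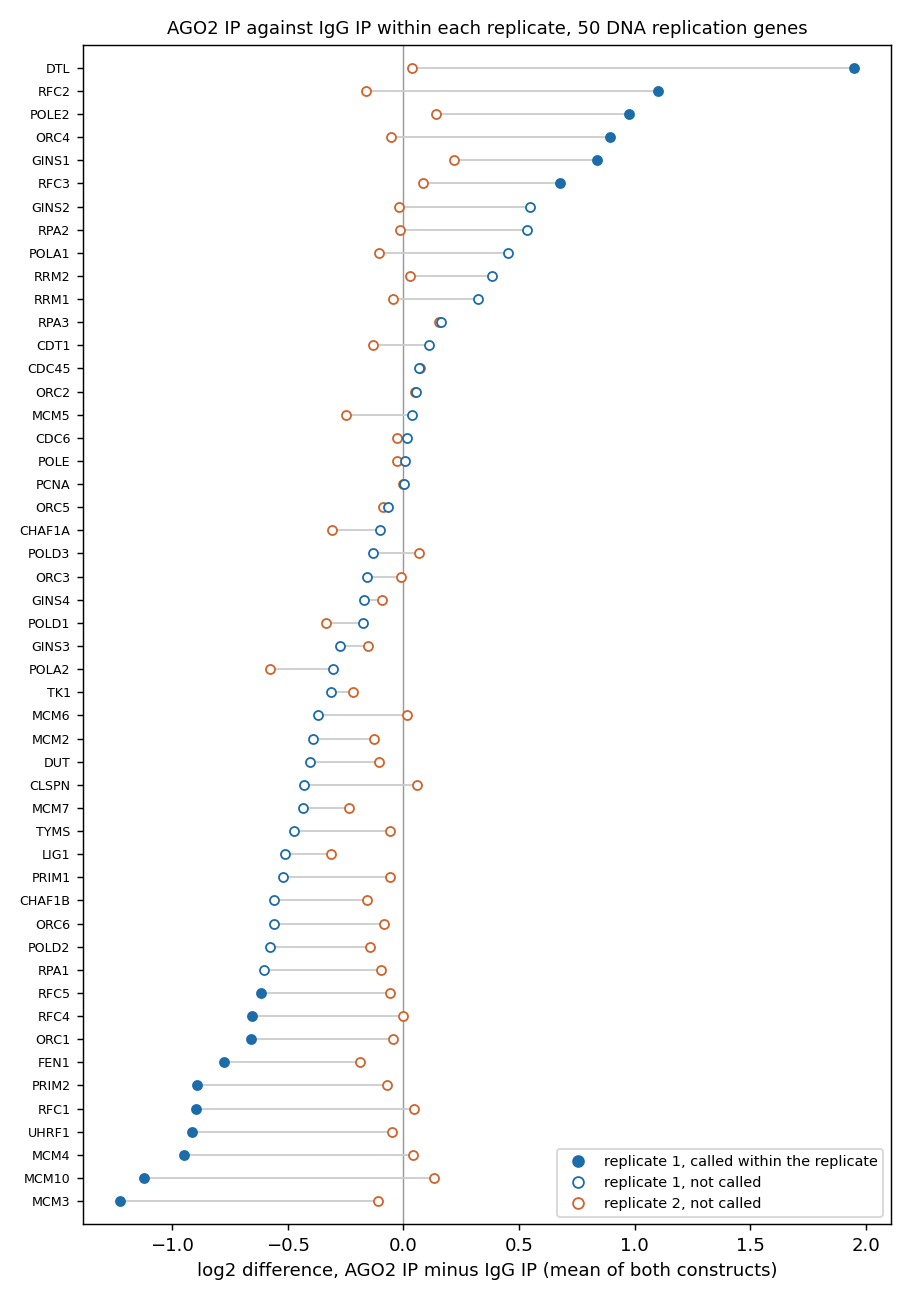
Each row is 1 of the 50 genes and the x axis is the log2 difference AGO2 IP minus IgG IP, as the mean of both constructs within replicate 1 and within replicate 2. Replicate 1 runs from -1.23 (MCM3) to 1.95 (DTL) with 16 genes called, while in replicate 2 every gene lies between -0.58 and 0.22 and none was called.

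The miR-21 construct was compared with the control vector in each fraction. limma called 0 members in AGO2 IP, IgG IP and Total RNA and 0 in the interaction with AGO2 IP against IgG IP, with and without the replicate block, and 0 of all genes. At an unadjusted p under 0.05 there was 1 member with the block, POLE2 in AGO2 IP (1.02 ± 0.36, adjusted p = 1.00), and 0 without it. In Total RNA the 50 genes were alike in level between the constructs: log2 differences, miR-21 minus control vector, ran from -0.34 to 0.43 in replicate 1 and from -0.37 to 0.20 in replicate 2, and 0 members reached 0.5 either way (2.95% and 1.97% of all genes did). In IgG IP of replicate 1, 2 members reached 0.5 (4%, against 9.4% of all genes), and in AGO2 IP of replicate 1, 11 did (22%, against 30.9%).

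In replicate 2 the IPs of the 2 constructs stood further apart. In AGO2 IP 22 members reached 0.5 either way (44%, against 34.3% of all genes) and in IgG IP 23 did (46%, against 32.9%). The same direction in both IPs was seen for 11 members that were higher with miR-21 (22%, against 14.4% of all genes) and 6 that were lower (12%, against 7.08%). Both IPs of a construct were nearly alike in replicate 2 (correlation over all genes 0.992 with miR-21 and 0.997 with the control vector). Agreement between the IPs is therefore not a separate observation. The values are of single arrays and were not tested, and the genes named next were chosen after their values were seen. RFC2 had 9.94 in AGO2 IP and 10.14 in IgG IP of miR-21 cells, against 8.58 and 8.71 in the same IPs of control vector cells, while Total RNA had 9.44 with miR-21 and 9.46 with the control vector. GINS2 had 11.21 and 11.19 in the IPs of miR-21 cells, against 10.11 and 10.17 in those of control vector cells, with 11.09 and 11.13 in Total RNA. Both genes were at the Total RNA level or above it in the IPs of miR-21 cells and below it in those of control vector cells. The other 9 higher genes were MCM2, MCM5, CDT1, POLE2, RPA2, RPA3, RRM2, TK1 and DTL, and the 6 lower ones were ORC1, ORC2, ORC6, PRIM2, RFC5 and CHAF1B. In replicate 1 the only member past 0.5 in both IPs was CLSPN, at 0.89 and 0.73, and RFC2 was at 0.74 in AGO2 IP and 0.07 in IgG IP.

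**Figure D5:**
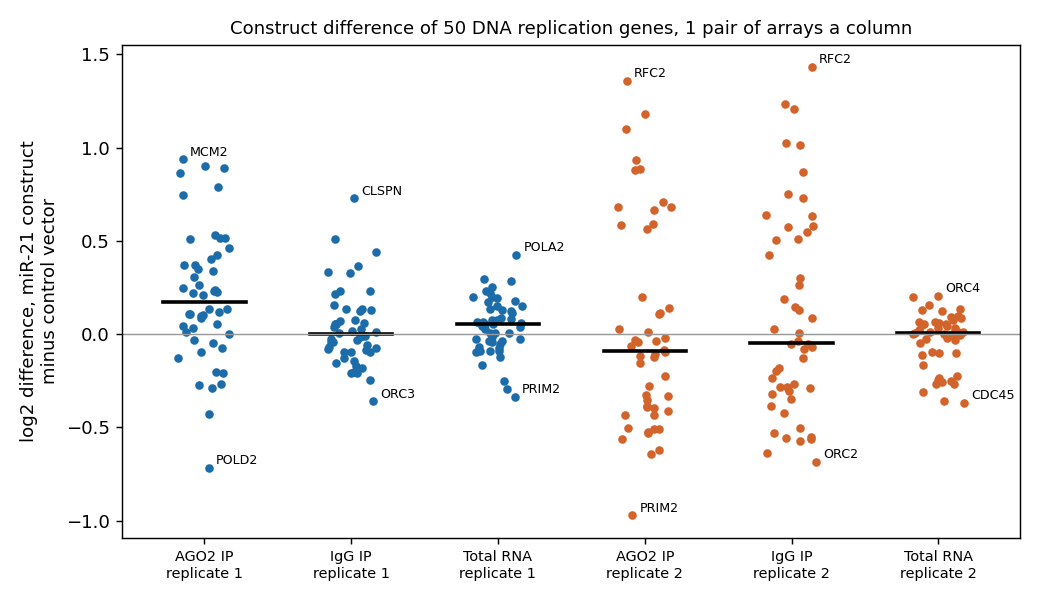
Each point is 1 of the 50 genes in 1 pair of arrays, and the y axis is the log2 difference miR-21 construct minus control vector in AGO2 IP, IgG IP and Total RNA of each replicate (x axis); bars are medians and the highest and lowest genes are named. Total RNA stays within -0.37 to 0.43, while the IPs of replicate 2 run from -0.97 (PRIM2) to 1.43 (RFC2).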

How the data were processed

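The 3 fractions of Jurkat cells were measured on 12 Affymetrix arrays. Per the labels' protocols, 1 ug was labelled for Total RNA and 100 ng for either IP. The deposited values are log2 values made by the authors with RMA, per the submitters' processing notes. Neither its settings nor whether all arrays were normalized together is given in the sources used here. Probe sets were named from the platform annotation, updated by gene ID. limma 3.58.1 in R 4.3.3 was fitted to all 12824 genes past the filter with 6 group means (6 residual degrees of freedom, or 5 with the replicate block), with Benjamini-Hochberg adjustment over all genes and a threshold of 0.05. Fits within a replicate used fraction and construct (2 residual degrees of freedom). The fits were tried on simulated data with independent noise and the same fraction difference in both replicates. Differences that change between the replicates, as for PRIM2, were not simulated. Across genes, the deviations from the group means of arrays with the same number correlated by 0.468 to 0.873 over the 15 pairs of groups. The numbers were therefore taken to pair the arrays, a choice made with earlier results of these data known. The labels do not say that a number stands for a shared culture or day. The report gives the blocked values, with the unblocked counts beside them. The number of arrays limits the precision. Figures used Python 3.11.15, pandas 2.3.3 and matplotlib 3.10.9.

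The members and the other gene lists were chosen with earlier results of these data known. Named with all arrays were the member of each role group with the largest AGO2 IP minus Total RNA difference, members called in opposite directions within the replicates, and GINS4, the member called in IgG IP; every called member is given with its value, and 4 of the further replication genes. Alternatives were other scalings, filters and probe set rules, and leaving out arrays.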

Additional observations from a re-analysis of the deposited data

How the results depend on the processing

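Counts of called members are of 50. For AGO2 IP against Total RNA with the pairing (17), the count was 10 with cyclic loess, 11 (3 higher: GINS1, ORC4 and RRM2; 8 lower) with arrays centred on the median of the genes tested, a scaling added after the data were seen, and 0 with no replicate block, where the replicate block gave 17. That centring moved the median of all genes to 0.14, from -0.05; the members' median stayed 0.22 below it (-0.22 under both). It turned the split of all called genes to 1017 higher and 701 lower, against 604 and 1447, and cyclic loess gave 619 and 791. A filter at a mean of 6 moved the median of all genes to -0.15, and the members' median minus it was -0.12. Leaving out 1 array gave 0 (4 arrays), 7, 9, 11, 12, 14 or 16. For IgG IP against Total RNA with the pairing (1), the replicate block gave the 1, and the count was 0 with no replicate block, with the mean of all probe sets, with centring on the genes tested and without AGO2 IP of control vector cells and IgG IP of miR-21 cells in replicate 2; it was 19 within replicate 2 and 0 to 3 with 1 array left out. For AGO2 IP against IgG IP it was 16 within replicate 1 and 5 without that pair of arrays, and 0 with 1 array left out. All construct counts, and all counts without the block, were 0 under every setting run, 1 array left out included, apart from the 17 and the 1 above. For the 19 differences of single genes followed over the settings none changed sign: 222 alternative values kept their side of the threshold, 190 lost the call and 6 gained it. The cause of these shifts was not tested.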

Other observations

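Other probe sets of the same gene bear on 11 of the 17 members that fell in AGO2 IP against Total RNA. Of their 16 other probe sets past the filter on low values, 15 had a negative AGO2 IP minus Total RNA difference and 1 a positive one, a probe set of MCM4 at 0.07. The other 3 of MCM4 past the filter were at -1.45, -1.0 and -0.70, those of MCM10 at -1.23 and -0.79, that of MCM7 at -0.93 and that of TK1 at -1.12. GINS4 ranged more widely, with -1.70 and -0.18 in its other probe sets past the filter. Those of MCM5, ORC5, RFC1 and RPA1 were at -0.84, -1.04, -0.98 and -0.75. Those of MCM6 and POLA2 were at -0.24 and -0.23, nearer to no difference than the ones used (-0.71 and -0.94). Of members not called, RRM2 had 0.008 in its second probe set against 0.58 in the one used, and ORC2 0.10 against 0.75. ORC4 had 0.74 against 0.70. The second probe set of DTL gave 1.69. The second probe set of CDT1, a gene that was not called, gave -1.45.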
